A study of Mus musculus with 4 samples.

Results

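The 8 genes described here encode enzymes that hepatocytes use to make or break down glucose, a regulator of that balance and the glucose transporter of these cells: Fbp1, G6pc, Pck1, Pcx, Pklr, Pfkl, Pfkfb1 and Slc2a2. They were chosen by name from 21938 protein-coding genes, and every called peak was collected that lay inside the gene or at most 10 kb from its TSS. The TSS is the 5′ end of the gene in GENCODE vM21 (build GRCm38). ATACseq, which uses a transposase to cut accessible DNA, and H2A.Z ChIPseq, which recovers the DNA wrapped around this histone variant after digestion with micrococcal nuclease, were performed on the livers of male C57Bl/6 mice aged 8 to 12 weeks. The mice were fed a normal diet and their livers were taken in the morning. The WT group was 1 liver of a Uhrf1-fl/fl mouse and the Uhrf1hepKO group was 1 liver of a Uhrf1-fl/fl;Alb:Cre mouse, so both carried the floxed allele of Uhrf1, which encodes a factor required to maintain DNA methylation. The Cre recombinase is driven by the albumin promoter and acts in hepatocytes, and the other cells of the liver keep the gene. Both assays drew on these 2 livers, so there are 4 libraries, 1 per genotype and assay. There is thus no replicate error, and every comparison between genotypes is a description of these 2 livers, without a test.

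The liver supplies glucose to the blood in fasting and stores or burns it after a meal. Both directions share most of their enzymes, and the steps that differ are the ones under control. Accessible chromatin at a promoter is where transcription factors and polymerase can bind, and H2A.Z is usually found in the nucleosomes that flank such a site.

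The 4 peak lists held 10582 WT and 10764 Uhrf1hepKO ATACseq peaks and 51450 WT and 47135 Uhrf1hepKO H2A.Z peaks on chromosomes 1 to 19, X and Y. The fold of a peak is the ratio of its reads to the local background. Its median was 4.31, 4.05, 5.12 and 5.35 in these 4 lists. No list is scaled to another, so the rank of a fold in its own list is given as a percentile. A q-value is that of the peak caller, which sets a peak against the background of its own library and does not compare livers. The background inferred from the folds was 3.10 reads per base in WT and 3.30 in Uhrf1hepKO for H2A.Z, where 93.6 and 91.4% of peaks lay on the steps of that background. For ATACseq, whose folds are means over a region, only 2.68 and 2.98% of peaks lay on such steps, so no depth is given. In the H2A.Z lists, peaks on this background had at least 11 reads over the summit in WT and 12 in Uhrf1hepKO, so sites with fewer reads could not be listed, and a site with no peak is not shown to be free of H2A.Z. The label of the tissue was set beside marker genes, again with the window of 10 kb. Of 8 hepatocyte markers, 1 had a WT and 3 had a Uhrf1hepKO ATACseq peak within that distance. The shares over all protein-coding genes were 34.4% in WT and 32.4% in Uhrf1hepKO. The hepatocyte markers Apoa1, Cps1, Hnf4a and Serpina1a had no peak in any list. Of 6 markers each of Kupffer, endothelial and stellate cells, none had an ATACseq peak in either list, and 1 of 6 cholangiocyte markers had one in WT. H2A.Z peaks were found at 2 (WT) and 1 (Uhrf1hepKO) of the hepatocyte markers, at 2 cholangiocyte markers in each liver and at 1 marker each of Kupffer, endothelial and stellate cells in each liver. Over all protein-coding genes, 58.4% had an H2A.Z peak within 10 kb in WT and 56.5% in Uhrf1hepKO. No peak of any list lay near 6 skeletal muscle markers. Uhrf1 had 1 peak of each list within 10 kb of its TSS, which does not check the deletion. The part of other liver cells in the peaks below was not tested.

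Together the 8 genes held 34 peaks, 10 of ATACseq and 24 of H2A.Z. Peaks lay at 6 genes, and G6pc and Pfkfb1 had none in any list. The TSSs fell into 3 arrangements. Pck1, Pcx and Pklr had ATACseq peaks in both livers within 500 bp of the TSS and no H2A.Z peak there. Pfkl had H2A.Z peaks over the TSS in both livers and an ATACseq peak just downstream. That TSS is the start of Pfkl-202, and no H2A.Z peak of either liver covered the RefSeq start at 78009807. The TSS of Fbp1, G6pc, Pfkfb1 and Slc2a2 had neither within 500 bp.

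The promoters on which these arrangements rest are shown 5′ to 3′ on the strand of the gene, as the 250 bases before the RefSeq start in GRCm38.p6. In Pck1 (chr2:173152823-173153072, plus strand), Pcx (chr19:4510222-4510471, plus strand) and the downstream promoter of Pklr (chr3:89136373-89136622, plus strand), capitals mark the bases that ATACseq peaks of both livers cover. The upstream promoter of Pklr (chr3:89135892-89136141, plus strand) is shown beside it because no peak covers it. In Pfkl (chr10:78009808-78010057, minus strand), capitals mark the bases under H2A.Z peaks of both livers. In G6pc (chr11:101367466-101367715, plus strand), which has no peak, capitals mark the matches to the motifs named further on.
Pck1: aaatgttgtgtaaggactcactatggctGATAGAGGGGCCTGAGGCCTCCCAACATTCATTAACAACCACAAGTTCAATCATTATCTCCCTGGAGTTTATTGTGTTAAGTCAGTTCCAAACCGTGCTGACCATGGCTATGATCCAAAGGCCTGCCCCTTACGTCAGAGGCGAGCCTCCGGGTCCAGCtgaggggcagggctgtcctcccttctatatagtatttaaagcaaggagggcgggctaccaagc
Pcx: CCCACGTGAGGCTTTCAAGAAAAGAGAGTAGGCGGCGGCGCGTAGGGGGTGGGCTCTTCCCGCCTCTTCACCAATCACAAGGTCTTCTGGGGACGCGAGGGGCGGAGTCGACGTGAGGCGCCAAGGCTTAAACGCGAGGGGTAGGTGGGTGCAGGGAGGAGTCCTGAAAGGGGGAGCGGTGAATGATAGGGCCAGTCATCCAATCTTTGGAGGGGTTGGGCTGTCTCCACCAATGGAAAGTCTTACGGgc
Pklr downstream: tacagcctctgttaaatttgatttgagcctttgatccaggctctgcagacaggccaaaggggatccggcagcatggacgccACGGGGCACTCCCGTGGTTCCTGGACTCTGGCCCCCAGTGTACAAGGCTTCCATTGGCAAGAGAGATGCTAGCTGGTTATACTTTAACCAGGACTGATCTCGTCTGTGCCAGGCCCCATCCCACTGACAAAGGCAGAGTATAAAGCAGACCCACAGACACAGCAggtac
Pklr upstream: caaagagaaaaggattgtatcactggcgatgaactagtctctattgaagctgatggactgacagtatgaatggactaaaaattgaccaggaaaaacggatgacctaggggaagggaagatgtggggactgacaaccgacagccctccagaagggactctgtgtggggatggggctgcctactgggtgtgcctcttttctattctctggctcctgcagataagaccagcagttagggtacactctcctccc
Pfkl: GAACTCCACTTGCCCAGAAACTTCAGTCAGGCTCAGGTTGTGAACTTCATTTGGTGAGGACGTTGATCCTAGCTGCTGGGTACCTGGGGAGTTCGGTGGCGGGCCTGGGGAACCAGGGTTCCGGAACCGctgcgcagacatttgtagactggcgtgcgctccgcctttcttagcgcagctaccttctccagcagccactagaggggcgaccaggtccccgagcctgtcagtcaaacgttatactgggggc
G6pc: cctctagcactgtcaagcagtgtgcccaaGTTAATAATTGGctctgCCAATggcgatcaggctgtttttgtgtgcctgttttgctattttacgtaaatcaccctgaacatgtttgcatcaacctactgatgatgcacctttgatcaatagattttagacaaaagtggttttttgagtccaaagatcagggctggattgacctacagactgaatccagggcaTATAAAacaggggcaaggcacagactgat

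**Figure D1:**
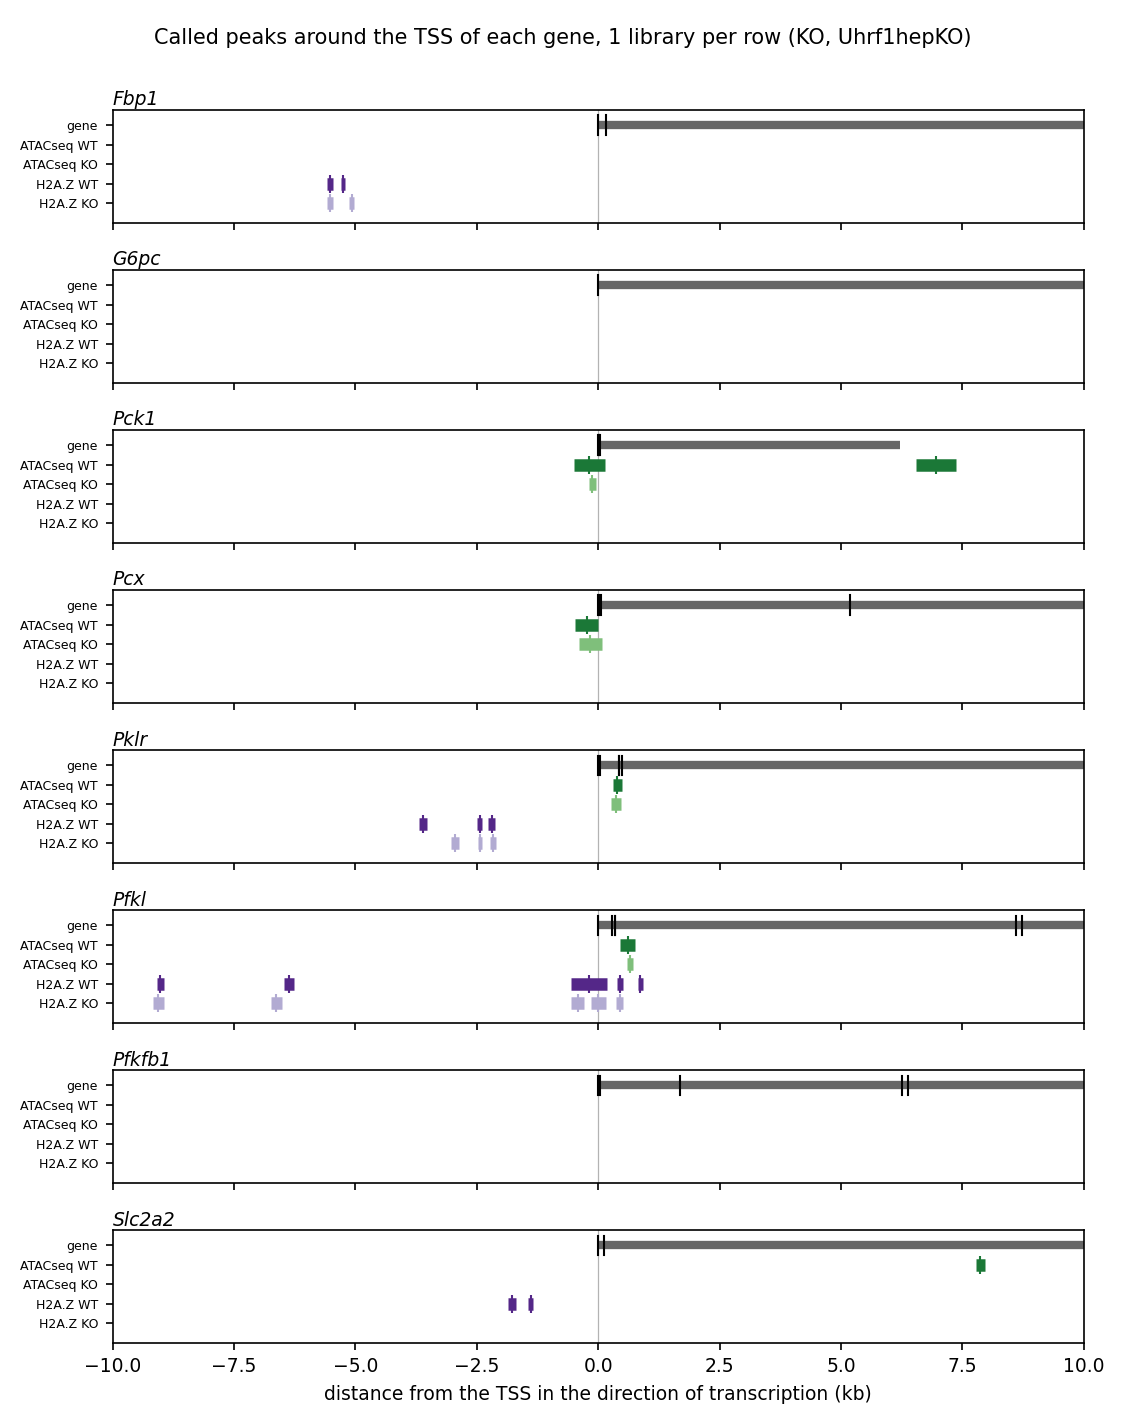
Called peaks of the 4 libraries around the TSS of each gene, with distance from the TSS in kb on the horizontal axis in the direction of transcription. Each row is 1 library (KO, Uhrf1hepKO), a block spans a peak, the grey bar is the gene and black ticks are its transcript starts. Pck1, Pcx and Pklr have ATACseq blocks in both livers near the TSS with no H2A.Z block within 500 bp, and the rows of G6pc and Pfkfb1 are empty. The H2A.Z peaks in the intron of Pcx lie outside the range drawn.

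The genes of the first steps of gluconeogenesis, Pcx and Pck1, had ATACseq peaks at the promoter in both livers. Pcx (ENSMUSG00000024892) encodes pyruvate carboxylase, which turns pyruvate into oxaloacetate in the mitochondrion, and lies on the plus strand of chromosome 19 from 4510472 to 4621752. Its promoter held the highest ranking ATACseq peaks of the 8 genes. The WT peak (4509997-4510469) was 473 bp wide with a fold of 5.54, at the 82.2nd percentile of its list and with a q-value of 7.04e-07. The Uhrf1hepKO peak (4510075-4510549) was 475 bp wide with a fold of 6.09, at the 91.8th percentile and with a q-value of 5.14e-10. The peaks overlapped over 395 bp. The WT peak ended 3 bp before the TSS and the Uhrf1hepKO peak ran across the starts of the transcripts Pcx-201, Pcx-204 and Pcx-203. No peak covered the second RefSeq promoter, whose start is at 4594319.

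H2A.Z was not called at the Pcx promoter in either liver. The nearest H2A.Z peaks to the TSS lay 11604 bp upstream in WT and 11600 bp in Uhrf1hepKO, at the promoter of the neighbour 2010003K11Rik. Within the gene, 1 H2A.Z peak per liver lay in an intron. The WT peak (4546110-4546210) had its summit 35686 bp downstream of the TSS, with 19 reads over the summit (exact Poisson 95% interval 11.4 to 29.7, counting error only, as for every such interval). The Uhrf1hepKO peak (4546097-4546217) had its summit only 7 bp away from that position and 25 reads (16.2 to 36.9). The intervals overlap. Such overlap is no test and the reads are not scaled between libraries, so no comparison of the livers is drawn from these counts.

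Pck1 (ENSMUSG00000027513) encodes the cytosolic phosphoenolpyruvate carboxykinase, which turns oxaloacetate into phosphoenolpyruvate and whose mRNA rises in fasting. It lies on the plus strand of chromosome 2 from 173153048 to 173159273. The WT ATACseq peak at the promoter (173152553-173153179) spanned 627 bp and all 4 annotated transcript starts, with a fold of 3.54 and a q-value of 0.0134. The Uhrf1hepKO peak (173152851-173153009) lay entirely inside it, spanned 159 bp and ended 39 bp before the TSS, with a fold of 3.59 and a q-value of 0.00708. Both ranked low, at the 9.19th percentile in WT and the 26.2nd in Uhrf1hepKO.

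A further WT ATACseq peak (173159585-173160421) lay beyond the 3′ end of Pck1 and was the widest ATACseq peak of the 8 genes at 837 bp. Its fold was 3.16, at the 2.01st percentile, and its q-value was 0.0271. No Uhrf1hepKO peak overlapped it, the nearest being the one at the promoter, 6575 bp away. No H2A.Z peak lay inside Pck1 or in the 10 kb around its TSS. The nearest were downstream at 17030 bp in WT (173170078-173170208) and 17025 bp in Uhrf1hepKO (173170073-173170197). These ranked high, with folds of 7.56 and 8.37 at the 84.8th and 88.4th percentiles.

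Fbp1 and G6pc, which act later in gluconeogenesis, had no ATACseq peak within 10 kb of the TSS in either liver. The depth of the ATACseq lists is unknown, so a missing peak does not show that the DNA is inaccessible. Fbp1 (ENSMUSG00000069805) encodes fructose-1,6-bisphosphatase and spans chromosome 13 from 62864753 to 62888282 on the minus strand. It had 2 H2A.Z peaks per liver, all in intergenic sequence about 5 kb upstream. The WT peak with its summit 5515 bp upstream (62893742-62893870) had 19 reads (11.4 to 29.7) and overlapped a Uhrf1hepKO peak (62893748-62893865) with 22 reads (13.8 to 33.3) over 118 bp. The other WT peak (62893492-62893586) had 20 reads (12.2 to 30.9), and the other Uhrf1hepKO peak (62893307-62893410) had 18 reads (10.7 to 28.4). These were 81 bp apart and did not overlap. The Uhrf1hepKO peak of that pair stood on a higher local background of 4.93 reads, and its fold of 3.21 was at the 2.01st percentile. The nearest ATACseq peaks were 19978 bp upstream in WT and 19963 bp upstream in Uhrf1hepKO.

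G6pc (ENSMUSG00000078650) encodes the catalytic subunit of glucose-6-phosphatase, which releases free glucose, and lies on the plus strand of chromosome 11 from 101367561 to 101377903. None of the 4 lists had a peak inside the gene or in the 10 kb around its TSS. The nearest ATACseq peaks were at the promoter of Psme3, 51395 bp away in WT and 51376 bp away in Uhrf1hepKO. The nearest H2A.Z peaks were downstream, at 23889 and 27563 bp.

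Of the glycolytic genes, Pklr and Pfkl had peaks of both assays in both livers. Pklr (ENSMUSG00000041237) encodes the pyruvate kinase of liver and red cells, which use different promoters of the gene, and lies on the plus strand of chromosome 3 from 89136142 to 89146784. The ATACseq peaks lay at the downstream promoter. The WT peak (89136454-89136622) spanned 169 bp with a fold of 4.13, a q-value of 0.00479 and a rank at the 41.8th percentile. The Uhrf1hepKO peak (89136412-89136617) spanned 206 bp with a fold of 3.76, a q-value of 0.0133 and a rank at the 36.1st percentile. They shared 164 bp, and each covered the starts of Pklr-202 and Pklr-203 but stayed 312 bp (WT) and 270 bp (Uhrf1hepKO) away from the first start of the gene.

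The H2A.Z peaks of Pklr lay in intergenic sequence upstream of both promoters, 3 in each liver. A pair of them was matched between the livers. At 2191 bp upstream, the WT summit had 23 reads (14.6 to 34.5) and the Uhrf1hepKO summit, 24 bp away, had 22 (13.8 to 33.3). At 2440 bp upstream, the WT summit had 19 reads (11.4 to 29.7) and the Uhrf1hepKO summit, 21 bp away, had 17 (9.90 to 27.2). The WT peak 3554 bp upstream (89132447-89132609; 15 reads, 8.40 to 24.7) and the Uhrf1hepKO peak 2938 bp upstream (89133116-89133267; 13 reads, 6.92 to 22.2) had no overlap in the other liver. The H2A.Z peak nearest to the ATACseq peak was 2435 bp away in WT and 2377 bp in Uhrf1hepKO.

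Pfkl (ENSMUSG00000020277) encodes the liver subunit of phosphofructokinase, the main control point of glycolysis, and spans chromosome 10 from 77986947 to 78010083 on the minus strand. It was the only one of the 8 genes with an H2A.Z peak within 500 bp of the TSS. The WT peak over the TSS (78009907-78010633) was 727 bp wide, the widest of the H2A.Z peaks here, and its summit had 27 reads (17.8 to 39.3) and a fold of 6.82 at the 78.5th percentile. In Uhrf1hepKO the same stretch held 2 separate peaks. The first (78009929-78010229) covered the TSS with 22 reads (13.8 to 33.3), and the other (78010366-78010645) had its summit 473 bp upstream with 26 reads (17.0 to 38.1). Another matched pair lay downstream, with 15 reads (8.40 to 24.7) at 433 bp in WT and 23 reads (14.6 to 34.5) at 417 bp in Uhrf1hepKO.

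The ATACseq peaks of Pfkl lay in an exon downstream of the TSS. The WT peak (78009318-78009634) spanned 317 bp with a fold of 4.0 and a q-value of 0.00805, and began 449 bp downstream of the TSS. The Uhrf1hepKO peak (78009365-78009485) spanned 121 bp within it, with a fold of 3.37 and a q-value of 0.0760, and began 598 bp downstream. The 500 bp limit therefore separated the livers here, although the peaks overlap. Both lie downstream of the RefSeq start at 78009807 and within 500 bp of it. In WT this was the only ATACseq peak of the 8 genes that an H2A.Z peak overlapped, and it had 1 more H2A.Z peak within 500 bp on each side. In Uhrf1hepKO the nearest H2A.Z peak was 83 bp away, and the 2 H2A.Z peaks within 500 bp were both on the upstream side.

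The WT peak 873 bp downstream of the Pfkl TSS (78009170-78009268; 18 reads) had no Uhrf1hepKO peak nearer than 299 bp. Further upstream, H2A.Z peaks with summits 9001 bp (WT, 23 reads, 14.6 to 34.5) and 9110 bp (Uhrf1hepKO, 18 reads, 10.7 to 28.4) from the TSS overlapped. Those at 6408 bp (WT, 18 reads) and 6654 bp (Uhrf1hepKO, 19 reads) missed each other by 44 bp.

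Pfkfb1 (ENSMUSG00000025271) encodes the liver form of the enzyme that makes and removes fructose-2,6-bisphosphate, the activator of phosphofructokinase. It lies on the plus strand of chromosome X from 150588229 to 150643878 and had no peak of any list. The nearest ATACseq peaks were 224812 bp away in WT and 635973 bp in Uhrf1hepKO, and the nearest H2A.Z peaks were 109701 and 101606 bp away. These were the longest distances of the 8 genes in all 4 lists.

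Slc2a2 (ENSMUSG00000027690) encodes GLUT2, the glucose transporter of the hepatocyte membrane, and lies on the plus strand of chromosome 3 from 28697903 to 28731359. It was the only one of the 8 genes with peaks in WT and none in Uhrf1hepKO. A WT ATACseq peak (28705688-28705865) lay in an exon 7873 bp from the TSS, with a fold of 3.62 at the 13.8th percentile and a q-value of 0.0443. The 2 WT H2A.Z peaks lay upstream. The first (28696036-28696201) had its summit 1775 bp from the TSS with a fold of 4.63 and 18 reads, and the other (28696465-28696567) had its summit 1413 bp away with a fold of 3.66 and 14 reads (7.65 to 23.5). The nearest Uhrf1hepKO peaks to the TSS were 107352 bp away for ATACseq and 15912 bp for H2A.Z. All 3 WT peaks ranked below the median of their lists, where many peaks had no overlap in the other liver. Only 33.9% of all WT ATACseq peaks in the lowest class of folds (4 classes cut at the quartiles), and 42.8% and 62.1% of all WT H2A.Z peaks in the lowest and the next class, were overlapped by a Uhrf1hepKO peak.

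**Figure D2:**
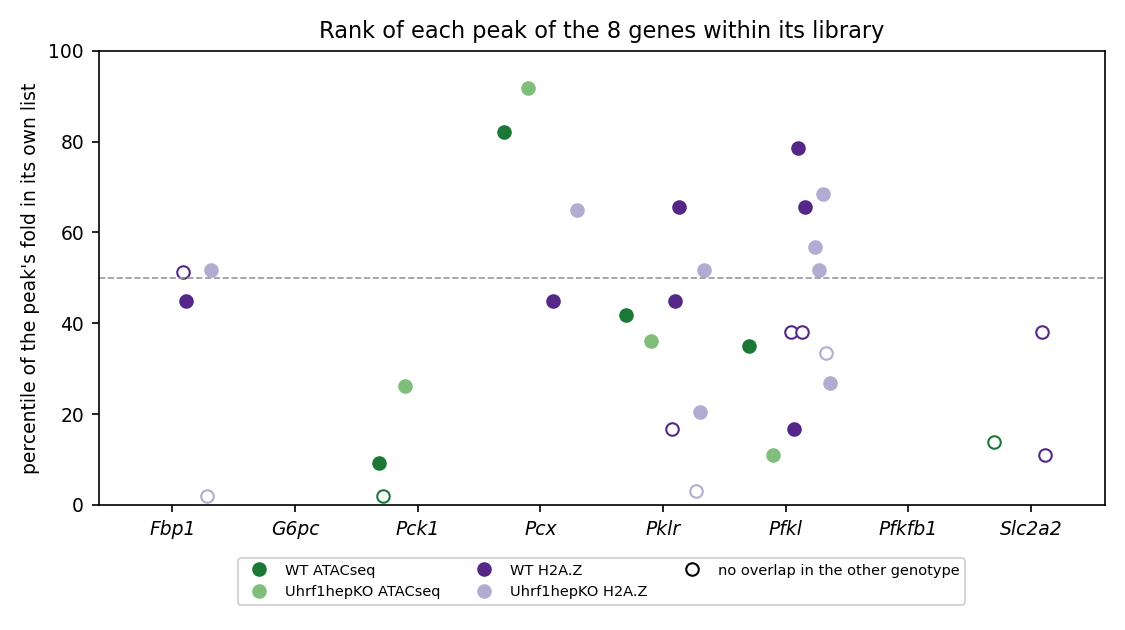
Percentile of the fold of each peak within its own list, by gene and library. Filled points are peaks that the other genotype overlaps, open points are peaks it does not, and the dashed line is the median of the list. The Pcx ATACseq peaks, at 82.2 and 91.8, stand above the other ATACseq peaks, and all 3 points of Slc2a2 are open and below the line.

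The overlap between genotypes was counted over all 8 genes, with 1 bp taken as enough. In ATACseq, 4 of the 6 WT peaks were overlapped by a Uhrf1hepKO peak, beside 61.3% of all WT peaks, and 4 of the 4 Uhrf1hepKO peaks were overlapped by a WT peak, beside 60.3%. In H2A.Z, 7 of 13 WT peaks were overlapped, beside 70.0% of the list, and 8 of 11 Uhrf1hepKO peaks, beside 75.6%. The peaks of the 8 genes were not strong. Of the 13 WT H2A.Z peaks, 4 reached the list's median fold, as did 6 of the 11 in Uhrf1hepKO and 1 ATACseq peak in each liver, that of Pcx. A peak of Fbp1 in WT, at 5.12, and those of Fbp1, Pklr and Pfkl at 5.35 in Uhrf1hepKO equalled the median, and such ties belong to the second of the 4 classes of fold. In every list the share overlapped rose with the fold, from 42.8% in the lowest to 98.4% in the highest class for WT H2A.Z and from 48.3 to 99.2% for Uhrf1hepKO H2A.Z. Of the 10 WT H2A.Z peaks of the 8 genes in the lower 2 classes, 4 were overlapped, and the 3 in the upper classes all were.

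**Figure D3:**
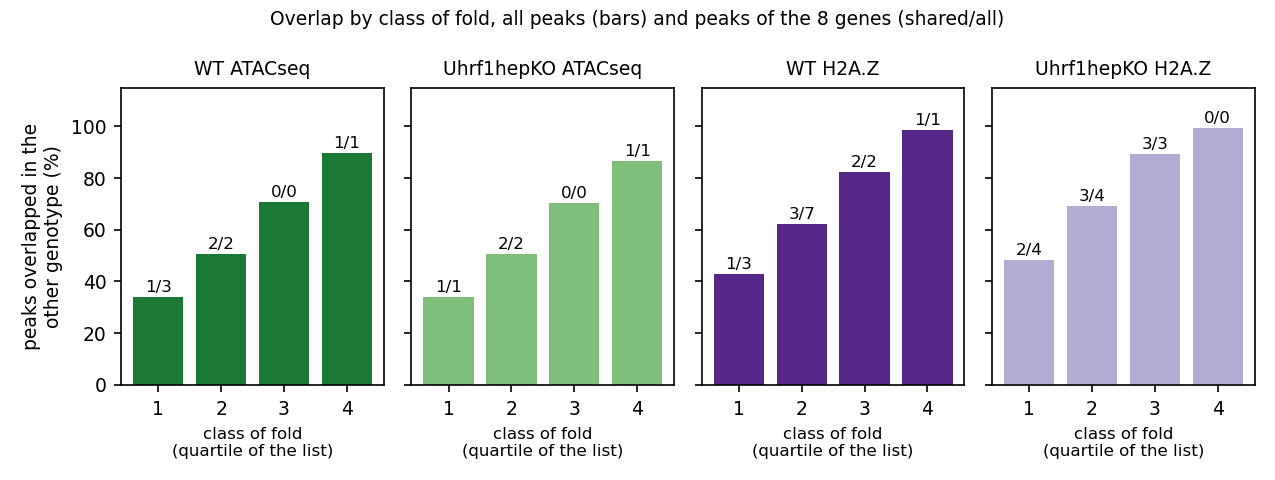
Share of all peaks in each list that a peak of the other genotype overlaps, in percent, by class of fold from 1 (lowest) to 4 (highest). The numbers above the bars give overlapped and all peaks of the 8 genes. The bars rise with the fold in all 4 lists, from 33.9 to 89.8% in WT ATACseq, and most peaks of the 8 genes fall in classes 1 and 2.

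The H2A.Z overlaps formed 8 pairs of peaks at Fbp1, Pcx, Pklr and Pfkl. Overlap chose these pairs, so that their summits lie near each other is no finding. The summits were 7 to 576 bp apart with a median of 25.5 bp, the widest gap being that of the upstream Uhrf1hepKO peak of Pfkl against the wide WT peak. WT had more reads over the summit in 5 pairs and Uhrf1hepKO in 3, and the Poisson intervals overlapped in all 8. The wide WT peak of Pfkl counts more than once among the 5, with 27 reads against 22 and 26. The reads are not scaled between the libraries. Intervals around counts of 15 to 27 reads leave room for differences that these libraries cannot show.

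**Figure D4:**
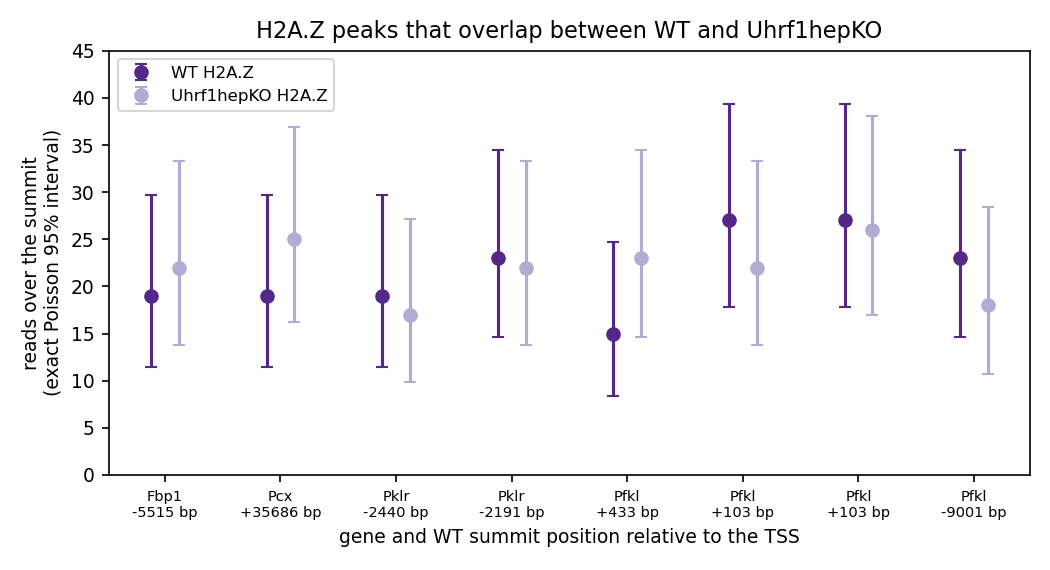
Reads over the summit of the H2A.Z peaks that overlap between WT and Uhrf1hepKO, with exact Poisson 95% intervals that cover counting error only. Each pair is labelled with its gene and the position of the WT summit relative to the TSS in bp. The wide WT peak of Pfkl (+103) appears in 2 pairs, and the intervals of all 8 pairs overlap.

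The number of the 8 genes with a peak was then set beside all protein-coding genes. Within 10 kb of the TSS, 5 of 8 genes had a WT ATACseq peak, beside 34.4% of all genes, and 4 had a Uhrf1hepKO ATACseq peak, beside 32.4%. An H2A.Z peak lay there at 4 of 8 genes in WT, beside 58.4%, and at 3 of 8 in Uhrf1hepKO, beside 56.5%. Within 500 bp, 4 genes had a WT and 3 a Uhrf1hepKO ATACseq peak, beside 25.3 and 22.9%. In that window 1 of 8 genes, Pfkl, had an H2A.Z peak in WT and in Uhrf1hepKO, beside 43.2 and 41.9%. With 8 genes, 1 gene more or less moves a share by 12.5 percentage points, which is more than the gap for WT H2A.Z within 10 kb. The distance from the TSS to the nearest H2A.Z summit had a median of 8462 bp in WT and 13807 bp in Uhrf1hepKO over the 8 genes, beside 3184 and 4400.5 bp over all protein-coding genes. For ATACseq the medians were 4240.0 and 10339.5 bp over the 8 genes, beside 32305 and 35059 bp.

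**Figure D5:**
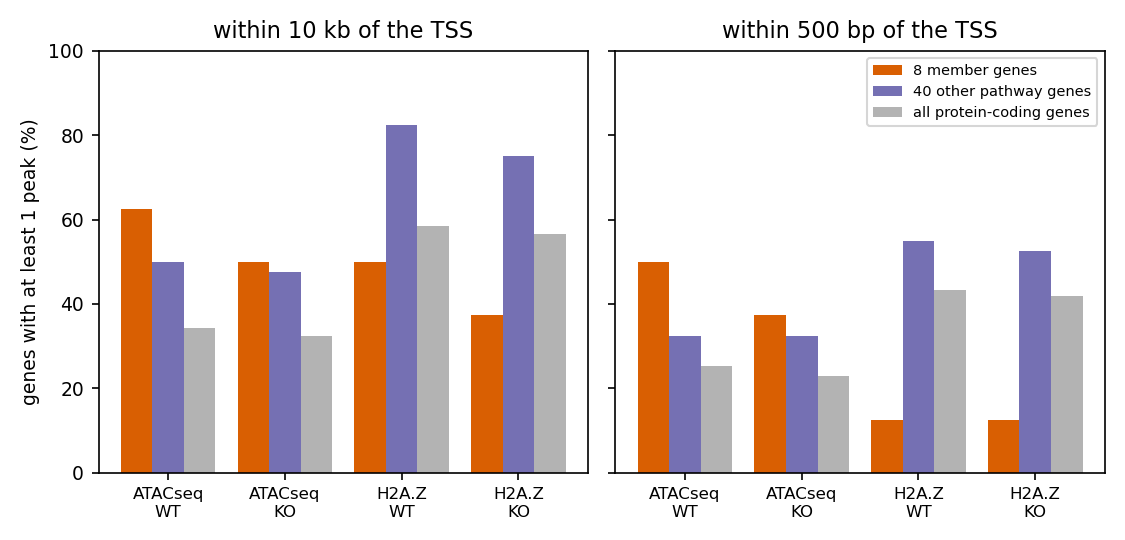
Share of genes with at least 1 peak, in percent, within 10 kb (left) and 500 bp (right) of the TSS in each library (KO, Uhrf1hepKO), for the 8 genes, 40 other genes of the pathway and all protein-coding genes. In both windows the bar of the 8 genes is the tallest for ATACseq in WT (62.5% within 10 kb) and the shortest for H2A.Z (12.5% within 500 bp).

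An ATACseq peak in both livers without H2A.Z was rare. It was found at the TSS of 1.25% of all protein-coding genes, 275 of 21938, and at 3 of the 8 genes. Of the 4239 genes with an ATACseq peak in both lists within 500 bp of the TSS, 88.0% had an H2A.Z peak in both lists there and 6.49% had none in either. Pck1, Pcx and Pklr were among the latter. In windows of 5 kb and of 10 kb, 4 of the 8 genes had an ATACseq peak in both lists. Of these, Pck1 and Pcx still had no H2A.Z peak, whereas Pklr had the peaks upstream. Over all genes with ATACseq in both lists, 4.52% of 5045 (5 kb) and 4.47% of 5812 (10 kb) had no H2A.Z peak. With peaks of a q-value of 0.01 or lower, Pcx alone kept an ATACseq peak in both lists. Of the 3356 genes that kept one, 6.35% had no H2A.Z peak. Peaks lost at this limit had q-values of 0.0134 in WT for Pck1 and 0.0133 in Uhrf1hepKO for Pklr. At the other end, 52.4% of all genes had no peak of any list within 500 bp, as had 4 of the 8, and 36.1% had none within 10 kb, as had G6pc and Pfkfb1.

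Beside them stand 40 other genes of the pathway, a list of isoenzymes, reversible enzymes, transporters and regulators. Within 10 kb, 20 had a WT and 19 a Uhrf1hepKO ATACseq peak (50 and 47.5%), and 33 and 30 had an H2A.Z peak (82.5 and 75%). Within 500 bp, 13 had an ATACseq peak in each liver and 22 (WT) and 21 (Uhrf1hepKO) had H2A.Z. Of the 10 with an ATACseq peak in both livers within 500 bp, 8 had H2A.Z in both and none lacked it in both. The highest WT ATACseq folds within 10 kb were 8.81 for a peak centred 68 bp from the TSS of Mdh2, a malate dehydrogenase, 5.66 for one at -4854 bp from G6pc2, the glucose-6-phosphatase subunit of pancreatic islets, and 5.48 for one at -6307 bp from Gckr, which binds glucokinase in the liver. For WT H2A.Z the highest folds were 11.94 at 8277 bp from the TSS of Tpi1 and 11.70 at -287 bp from that of Pgam1, both enzymes of the shared steps, and 11.46 at -4612 bp from that of G6pc2. Of these, only the peaks of Mdh2 and Pgam1 had their middle or summit within 500 bp of the TSS. Peaks of the other genotype overlapped all of these. Whether the TSS of another gene lay nearer to any of these peaks was not examined. No peak of any list lay within 10 kb of Hk1, Hk2, Hk3, Mlxipl or Pgam2. The pattern of Pfkl within 500 bp, with H2A.Z in both livers and ATACseq in WT alone, was shared by Aldoc, Got2 and Pfkfb4 and by 4.90% of all protein-coding genes. This pattern is that of the 5′ end of the gene. Within 500 bp of the RefSeq start of Pfkl, both livers had an ATACseq peak.

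The promoters differed in sequence. Within 500 bp of the TSS, Pcx had 84 CpGs, Pfkl 51, Pfkfb1 45, Fbp1 31, Pck1 22, G6pc 12, Pklr 10 and Slc2a2 9. Their median was 26.5, beside 41.0 over all protein-coding genes and 44.0 over the 40 other pathway genes. The 3 genes with ATACseq peaks and no H2A.Z thus spanned the range from 10 to 84 CpGs. The 275 genes of that kind had a median of 81.0, beside 67.0 over all 4239 genes with an ATACseq peak in both lists. Pfkfb1, with 45 CpGs around its GENCODE TSS, had no peak. All these counts are centred on that TSS, and other starts of a gene can differ. In the shorter windows searched for motifs below, RefSeq promoters 1 to 4 of Pfkfb1 held 1, 20, 1 and 2 CpGs. The upstream promoter of Pklr held 3 in such a window and the downstream one, where the ATACseq peaks lay, held 8. Which start was used in these livers was not tested.

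Short motifs were searched on both strands of 13 RefSeq promoters of the 8 genes, each from 250 bases before to 50 bases after the start. The TATA box (TATAAA), present in 13.6% of 32817 promoters, lay at positions -31 to -26 from the start in the downstream promoter of Pklr, under the ATACseq peaks of both livers. It lay at -29 to -24 in G6pc, where no peak was called, and at -193 to -188 in 1 promoter of Pfkfb1. The CCAAT box (CCAAT, 37.4% of promoters) was found in 8 of the 13 promoters, in 6 of the 8 genes, with 3 copies under the Pcx peaks. The GC box (GGGCGG, 35.6% of promoters) was found in 5 of the 13 promoters, each of a different gene. An E-box (CACGTG, 7.15%) lay at the upstream end of the Pcx promoter, at -248 to -243. The HNF1 motif (GTTAATNAT, 0.801%) was found in G6pc at -221 to -213, overlapping a CCAAT box on the other strand, and the ETS motif (CCGGAAG, 8.86%) in Pfkfb1. The letters TGACGTCA (1.79%), TGTTTAC (3.65%), AAAGTCC (4.21%) and TTGCGCAA (0.183%) were in none of the 13 windows. These matches describe the sequence and say nothing of binding.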

How the data were processed

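ATACseq and H2A.Z peaks came from 1 WT and 1 Uhrf1hepKO liver, 4 libraries in all. The authors mapped reads with BWA-MEM (GRCm38.p4), ran PICARD to sort and clean the alignments and, for ChIPseq, to remove duplicates, and ran MACS2 on every library separately, in broad mode for ATACseq. The version, the control, a shift of ATACseq reads and the mode for H2A.Z are not given in the sources used here. The methods describe single-end ATACseq reads and calls made with the option for paired ends. The submitters' processing notes also name FastQC 0.11.5 and Trimmomatic. Each deposited fold is a ratio of reads to local background, as the authors' caller gives it, a mean over the region for ATACseq and the summit value for H2A.Z. The −log10 p- and q-values deposited beside it were made likewise, and the deposited score is 10 times the −log10 q-value, made for display. The deposited summit of H2A.Z, another value, is counted in bp from the first base of a peak.

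Peaks on other sequences than chromosomes 1 to 19, X and Y were left out. Genes came from GENCODE vM21. Promoter sequences came from RefSeq (GRCm38.p6, the same chromosome bases as the build of the peaks), and all 8 genes matched. Promoters were 500 bp upstream of the TSS. A position relative to the TSS is that of the summit for H2A.Z and of the middle of the peak for ATACseq. The caller's fold is reads plus 1 over background plus 1, and together with the Poisson p-value this gave the reads over an H2A.Z summit. The depth of the ATACseq lists is unknown. Intervals are exact Poisson at 95% and cover counting error only. No test was made, since each condition has 1 library.

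All 8 genes are named. Of 40 other pathway genes, those named are the 3 with the highest WT fold in each assay, those with no peak within 10 kb, and those with the near pattern of one of the 8 genes where 5 or fewer share it. The genes and lists were chosen with earlier results of these data known. Peak thresholds, windows, TSSs and the overlap rule were varied 1 at a time. In simulated data, 200 of 200 planted genes were found, 200 overlaps were as counted base by base, and reads were recovered at 300 of 300 summits. The software was Python 3.11.15 with scipy 1.17.1, numpy 2.4.6, matplotlib 3.10.9 and pandas 2.3.3.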

Additional observations from a re-analysis of the deposited data

How the results depend on the processing

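Of 93 values of 17 results under 9 alternative settings, 63 stayed close to the reported value and 30 moved. A count was close within 1.5 times, and a share within the 95% binomial interval (Wilson) of the reported one, which is wide for so few peaks. With peaks of a q-value of 0.01 or lower, 3 genes held 3 WT ATACseq peaks and 2 held 2 Uhrf1hepKO ATACseq peaks, of which 50% were overlapped beside 33.3% of the WT peaks, the share of the 40 pathway genes with a Uhrf1hepKO ATACseq peak was 32.5%, and 1 gene (Pcx) kept ATACseq in both livers without H2A.Z. With folds at or above the list median, 1 gene held 1 ATACseq peak in each liver (overlapped share in WT 100%), 4 WT and 6 Uhrf1hepKO H2A.Z peaks were left, and the pathway shares for ATACseq were 25% (WT) and 30% (Uhrf1hepKO). Within 5 kb, 7 Uhrf1hepKO H2A.Z peaks were left. Within 500 bp, 1 gene (Pfkl) held 2 WT and 3 Uhrf1hepKO H2A.Z peaks, all overlapped (100%), as were the WT ATACseq peaks (100%), and the pathway shares were 32.5% for ATACseq in each liver and 55.0% (WT) and 52.5% (Uhrf1hepKO) for H2A.Z. A required overlap of 50% of both peaks left 50% of the Uhrf1hepKO and 33.3% of the WT ATACseq peaks overlapped, against 66.7% of the latter as reported, and an allowed gap of 200 bp raised the Uhrf1hepKO H2A.Z share to 90.9%. Counting every transcript start moved none of these results by that much. The alternatives for ATACseq without H2A.Z, and its share among the genes with an ATACseq peak in both lists, were chosen after seeing the data. These settings keep fewer peaks or other overlaps by construction. No paired analysis was possible because each condition has 1 library. Weak sites can be missing from the lists, whose depth is unknown for ATACseq, and the spread between mice is unknown.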
